A study of Mus musculus with 2 samples.

Results

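The genes described here are 10 genes of lipid uptake, storage and efflux: the receptor genes Trem2 and Cd36, the lipase genes Lpl and Lipa, the fatty acid carrier genes Fabp4 and Fabp5, the lysosomal glycoprotein gene Gpnmb, and the efflux genes Abca1, Abcg1 and Apoe. They were taken by symbol from the 55450 gene rows that both deposited count matrices hold, and all 10 were found, 1 row each. Their levels were read in cell classes named from marker genes, in subtypes of endothelium and in states of the macrophage-like cells. None of the 10 genes served as a marker, and the clustering left them out.

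Lipoprotein lipase, the product of Lpl, sits on the capillary wall and frees fatty acids from triglyceride-rich lipoproteins, which cross the endothelium with the help of CD36 and bind fatty acid binding proteins inside the cell. Macrophages also engulf modified lipoproteins and cell debris, digest cholesteryl esters in the lysosome with lysosomal acid lipase, and return cholesterol to lipoproteins through the transporters ABCA1 and ABCG1, whose genes are targets of the sterol-sensing LXR nuclear receptors. In arterial lesions, lipid-laden macrophages are known for high Trem2, Gpnmb and Fabp5.

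The data are 2 single-cell RNA-seq libraries of aorta, 1 from mice given an inhibitor and 1 from mice given DMSO, the solvent. The inhibitor is not named in the labels, and the groups were read from the initials of the library titles with the wording of the series. All animals of both groups carried the Apoe-/- genotype, were 12 weeks old and had an abdominal aortic aneurysm induced with angiotensin II, so neither library comes from healthy tissue. The aorta was cut into 5 segments and digested; how many animals went into a library, and which segment a cell came from, is not stated in these sources. Apoe-/- mice lack functional apolipoprotein E, which raises plasma cholesterol, and the Apoe values below are transcript tags with no functional product implied. Where the gene is disrupted is not stated in these sources, and a 3′ tag outside the disrupted part checks nothing about the genotype.

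With 1 library per group there is no replicate and no test. Every difference below compares 2 libraries, and an effect of the inhibitor cannot be told apart from any other difference between the 2 preparations. Levels are UMIs (unique molecular identifiers, counts of captured transcripts) summed over the cells of a class and divided by all UMIs of that class, given as CPM (counts scaled to a fixed total), with an exact Poisson 95% interval. A ratio is inhibitor over DMSO, with an exact interval, and all intervals cover counting error only. A gene is called measured in a class at 20 CPM or more in 1 library, 20 UMIs or more over both, and 20% or more of its level in the class where it is highest. It is called higher or lower where the ratio is at least 1.5-fold either way and the interval leaves out 1. The share of all measured gene rows called in the same direction stands beside each count as background. The limits can be met in 1 library alone, and a gene that met them only where it was high had to differ, so such genes are named beside the counts. Of the members called below, this was so for Fabp5, in 1 macrophage state and in an unnamed cluster.

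After filters, 7417 cells of the inhibitor library and 8411 of the DMSO library remained, with a median of 8991 and 7935 UMIs per cell. Of 40 clusters, 27 were named in 11 cell classes, of which 9 held at least 50 cells in each library. The class-defining markers were present: 8 of 8 macrophage, 9 of 9 adipocyte, 7 of 7 capillary and 7 of 7 smooth muscle markers reached 20 CPM in their own class in both libraries. The same lists had named the classes, so this is a description and no test of the names. In the naming step, other clusters met part of a list. These were 3 of 7 and 5 of 7 dendritic, 5 of 6 neutrophil, and 7 of 8 and 5 of 8 T cell markers. The libraries differed in makeup, with 3115 and 795 smooth muscle-like, 670 and 1643 macrophage-like, 84 and 737 adipocyte-like cells in the inhibitor and the DMSO library. They shared 15 cell barcodes. Left to itself, the doublet caller marked no cell in the DMSO library, so its threshold in the inhibitor library was applied to both and marked 5.40% of inhibitor barcodes and 2.77% of DMSO barcodes.

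The promoter of Abca1 is shown because Abca1 was the member called lower in the most classes, and because it carries an LXR-type direct repeat. The 250 bases before the annotated start, on the minus strand at chr4:53159896-53160145 (RefSeq, GRCm38.p6), are printed 5′ to 3′, with motif matches in capitals.
Abca1: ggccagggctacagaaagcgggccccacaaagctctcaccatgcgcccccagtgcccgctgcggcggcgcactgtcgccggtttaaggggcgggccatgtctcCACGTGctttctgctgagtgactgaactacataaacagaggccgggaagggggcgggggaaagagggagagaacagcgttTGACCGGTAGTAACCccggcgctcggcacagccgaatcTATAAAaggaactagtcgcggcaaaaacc
The first capitals are an E-box (CACGTG) at 147 to 142 bases before the start, which 6.02% of 32851 promoter windows of the same table hold on either strand. The middle capitals are the direct repeat, searched as TGACC, any 5 bases and TNACC on both strands, at 67 to 53 bases before the start, and 0.177% of the windows hold it. The last capitals are a TATA box (TATAAA) 29 bases before the start, found in 12.4% of the windows. The AP-1 letters TGACTCA, found in 4.46% of the windows, are in none of the windows that table gives for the members, and the motif matches in the Abca1 window do not overlap each other. Of the 10 members, 6 had a promoter entry (Abca1, Apoe, Cd36, Gpnmb, Lipa and Trem2), and the direct repeat matched in that of Abca1 alone. A match describes letters, not a bound site.

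Most of the genes were concentrated in 1 or 2 cell classes. Trem2 was a macrophage gene, Cd36 a gene of capillary endothelium, Lpl and Fabp4 genes of adipocytes and capillary endothelium, Gpnmb a gene of macrophages and fibroblasts, and Apoe a gene of Schwann cells and macrophages. Fabp5 was highest in the small dendritic-like class, above all its Ccr7-led cluster, and in macrophage-like cells. Lipa, Abca1 and Abcg1 were spread over more classes, with macrophages at or near the top.

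**Figure D1:**
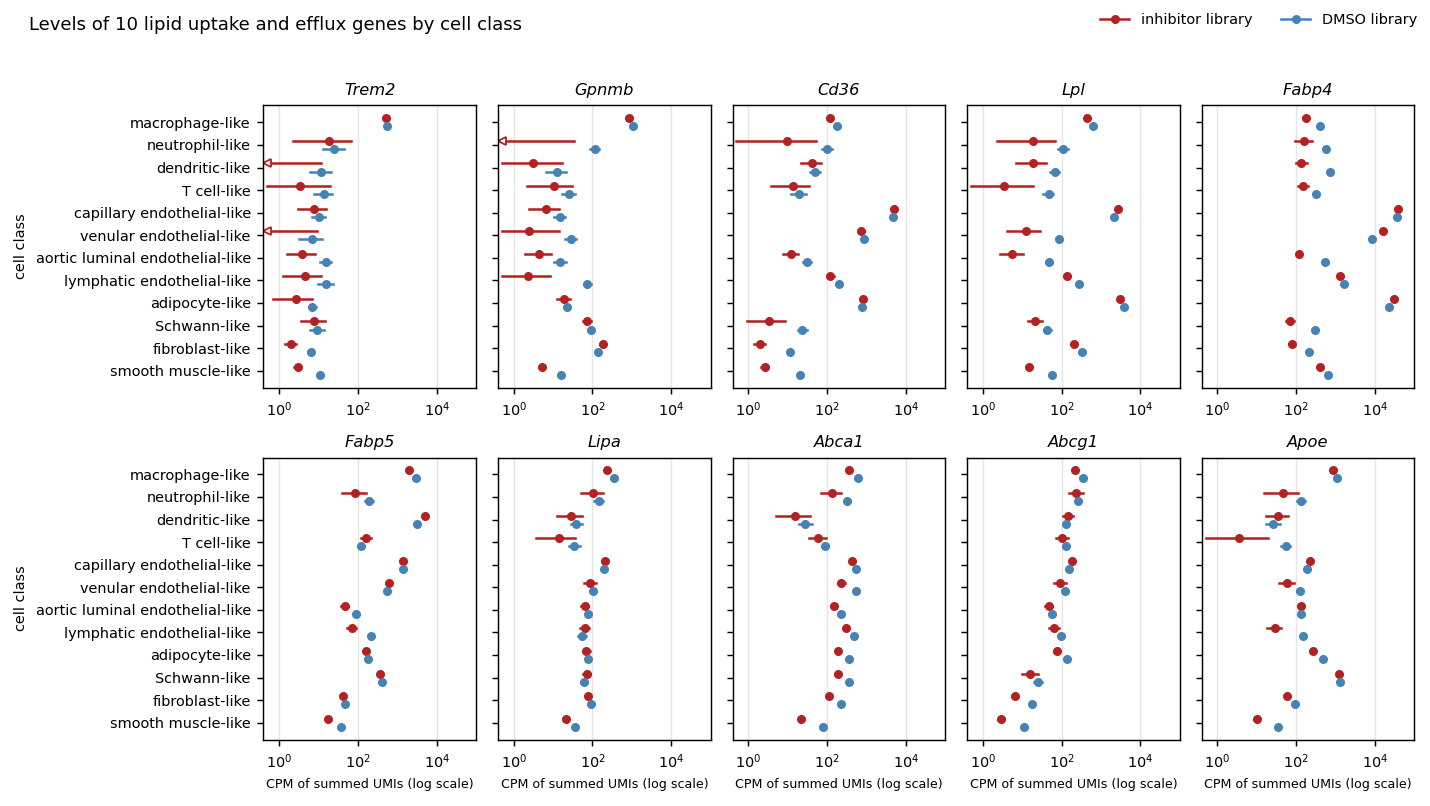
Level of each of the 10 genes by cell class, in CPM of summed UMIs on a log axis, in the inhibitor library (red) and the DMSO library (blue); bars are exact Poisson 95% intervals and open triangles at the left edge are levels of 0. Trem2 stands apart in macrophage-like cells at 518 and 532 CPM, Cd36 in capillary endothelial-like cells at 5022 and 4716 CPM, while Abca1 points of the inhibitor library lie left of those of the DMSO library in every class.

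Trem2 (GRCm38 chromosome 17, 48346401-48354147, plus strand) encodes a lipid-sensing macrophage receptor that signals through the adaptor TYROBP. It had 518 CPM (95% interval 497 to 538) in macrophage-like cells of the inhibitor library, against 532 CPM (519 to 544) in those of the DMSO library. The next class, neutrophil-like cells, had 18.9 and 25.0 CPM, and the gap was beyond counting error in both libraries, whereas the classes below did not stand apart from each other. Macrophage-like cells held 91.2% of all Trem2 UMIs of the inhibitor library and 89.2% of those of the DMSO library. A Trem2 UMI was found in 60.6% and 69.0% of macrophage-like cells, or in 42.7% and 46.4% after each cell was thinned to 2000 UMIs, which kept 621 and 1587 cells. In T cell-like cells, which should lack the gene, the share was 1.49% and 5.83%, at median depths of 4008 and 4064 UMIs against 5809 and 6937 in macrophage-like cells. The Trem2 level of T cell-like cells, 3.46 and 13.4 CPM, was close to the 3.45 and 15.7 CPM that would arrive with free macrophage RNA in proportion to the C1q genes found there.

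Cd36 (chromosome 5, 17781690-17888801, minus strand) encodes a membrane receptor for fatty acids and oxidised lipoproteins. Its level was 5022 CPM (4878 to 5169.6) in capillary endothelial-like cells of the inhibitor library and 4716 CPM (4635 to 4798) in those of the DMSO library, and a UMI was seen in 99.5% of them in each. Within endothelium the order was steep: venular cells had 732 and 859 CPM, and aortic luminal cells 12.2 and 30.7 CPM. Adipocyte-like cells had 831 and 789 CPM. Macrophage-like cells had 117 and 176 CPM. Endothelial-like cells gave 68.0% of the Cd36 UMIs of the inhibitor library and 46.0% of those of the DMSO library, in which adipocyte-like cells gave 36.2%, against 17.6% in the inhibitor library.

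Lpl (chromosome 8, 68880491-68907448, plus strand), the lipoprotein lipase gene, was highest in adipocyte-like cells, at 3119 CPM (3031 to 3209) in the inhibitor library and 3833 CPM (3801 to 3865) in the DMSO library. Capillary endothelial-like cells had 2683 and 2187 CPM, with a UMI in 91.1% and 93.4% of cells. Textbook accounts place LPL synthesis in the cells beneath the endothelium and its action on the capillary wall. The adipocyte marker Adipoq had 4.37 and 23.0 CPM in capillary cells, against 1784 and 2072 CPM in adipocyte-like cells, and free adipocyte RNA in that proportion would bring 7.64 and 42.5 CPM of Lpl. Venular cells had 12.4 and 87.5 CPM of Lpl and aortic luminal cells 5.53 and 49.0 CPM, so that the level followed the capillary subtype in both libraries. Macrophage-like cells had 453 and 628 CPM and fibroblast-like cells 204 and 325 CPM, each apart from the next class in both libraries.

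Lipa (chromosome 19, 34492318-34527474, minus strand) encodes lysosomal acid lipase, which splits cholesteryl esters and triglycerides of ingested lipoproteins. Macrophage-like cells led with 236 CPM (223 to 251) in the inhibitor library and 354 CPM (344 to 364) in the DMSO library. Capillary endothelial-like cells had 206 and 192 CPM and neutrophil-like cells 104 and 144 CPM. Fibroblast-like, Schwann-like, adipocyte-like and lymphatic cells of the inhibitor library lay between 63.1 and 78.6 CPM with no neighbours apart.

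Fabp4 (chromosome 3, 10204088-10208576, minus strand) encodes the fatty acid carrier of adipocytes and capillary endothelium. It had 37333 CPM (36938 to 37731) in capillary endothelial-like cells of the inhibitor library and 35134 CPM (34912 to 35356) in those of the DMSO library. Adipocyte-like cells had 31155 and 22945 CPM, venular cells 16354 and 8421 CPM, and aortic luminal cells 118 and 553 CPM. Lymphatic cells had 1281 and 1672 CPM and smooth muscle-like cells 397 and 638 CPM, and smooth muscle-like cells gave 13.7% of all Fabp4 UMIs of the inhibitor library and 1.60% of those of the DMSO library. Macrophage-like cells had 181 and 411 CPM and T cell-like cells 152 and 321 CPM. Free adipocyte RNA in proportion to Adipoq would bring 10.9 and 143 CPM to macrophage-like, 60.4 and 197 CPM to T cell-like and 76.3 and 255 CPM to capillary cells. The Fabp4 level was 64.0 and 8.62 times what it would bring to lymphatic cells, and 36.2 and 8.52 times what it would bring to smooth muscle-like cells. These multiples cover adipocyte RNA alone. Free RNA of capillary endothelium, where Fabp4 was highest, was not computed. The part of free RNA in these levels was not tested.

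Fabp5 (chromosome 3, 10012548-10016607, plus strand) encodes the epidermal-type carrier, which macrophages, dendritic cells and endothelium share. The small dendritic-like class, with 37 and 88 cells, had 5129 and 3179 CPM, and its Ccr7-led cluster 9675 and 8236 CPM. An unnamed cluster led by Cd209a, which scored best as dendritic on 2 of 7 markers, had 682 and 454 CPM. Macrophage-like cells had 2005 CPM (1965 to 2046) in the inhibitor library and 2906 CPM (2877 to 2935) in the DMSO library, and capillary cells 1371 and 1378 CPM. The near-identical gene row Fabp5l2 held 2 and 6 UMIs, against 16286 and 56484 for Fabp5.

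Gpnmb (chromosome 6, 49036546-49070929, plus strand) encodes a transmembrane glycoprotein of lysosomes that is known to mark lipid-laden and lysosome-stressed macrophages. Its level in macrophage-like cells was 841 CPM (816 to 868) in the inhibitor library and 1049 CPM (1032 to 1067) in the DMSO library, carried by 13.7% and 34.8% of the cells, or 10.8% and 25.1% after thinning. Fibroblast-like cells had lower levels in more of their cells: 189 CPM (183 to 195) and 139 CPM (135 to 143), with a UMI in 63.6% and 65.2% of cells. Free macrophage RNA would bring 2.77 and 11.8 CPM there. Fibroblast-like cells gave 44.9% of the Gpnmb UMIs of the inhibitor library and 23.1% of those of the DMSO library. The fibroblast clusters differed, and the class was a different mix of them in each library. The cluster led by Angptl7 and Fmod, of 1218 inhibitor cells and 284 DMSO cells, had 237 and 348 CPM, a ratio of 0.681 (0.631 to 0.735). The Mmp3-led cluster, of 278 and 832 cells, had 139 and 117 CPM, and the Penk-led cluster, of 326 and 711 cells, 134 and 130.4 CPM. The part of this makeup in the class levels was not tested.

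Abca1 (chromosome 4, 53030787-53159895, minus strand) encodes the transporter that loads cholesterol and phospholipid onto lipid-poor apolipoprotein A-I. It had 369.6 CPM (353 to 387) in macrophage-like cells of the inhibitor library and 617 CPM (604 to 630.2) in those of the DMSO library. Lymphatic endothelial-like cells followed at 299 and 479 CPM, then endothelial-like cells at 247 and 422 CPM, adipocyte-like cells at 193 and 358 CPM and Schwann-like cells at 187 and 351 CPM. Lymphatic and endothelial cells were not apart in the inhibitor library, nor were adipocyte-like and Schwann-like cells in either. Fibroblast-like cells had 113 and 224 CPM, T cell-like cells 58.8 and 89.2 CPM, and smooth muscle-like cells 21.2 and 80.7 CPM. The order of the 9 compared classes was the same in both libraries.

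Abcg1 (chromosome 17, 31057675-31117988, plus strand) encodes the transporter that passes cholesterol to mature high-density lipoprotein. Neutrophil-like cells had 236 CPM (153 to 348) in the inhibitor library and 267 CPM (223 to 318) in the DMSO library, and macrophage-like cells 224 CPM (211 to 238) and 341 CPM (331 to 351), and the 2 classes were apart in the DMSO library only. T cell-like cells had 104 and 128 CPM and capillary cells 188 and 154 CPM. Fibroblast-like cells had 6.47 and 17.3 CPM and smooth muscle-like cells 2.88 and 11.1 CPM.

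Apoe tags (chromosome 7, 19696109-19699188, minus strand) were present in a strain that lacks functional apolipoprotein E, the ligand by which remnant lipoproteins bind their receptors. Schwann-like cells had 1199.7 CPM (1138 to 1264) in the inhibitor library and 1314 CPM (1271 to 1358) in the DMSO library, and macrophage-like cells 854 CPM (828 to 881) and 1054 CPM (1036 to 1071). A single Schwann-like cluster led by Fabp7 reached 2154 and 2212 CPM. Adipocyte-like cells had 270.4 and 479 CPM, and endothelial-like cells 147 and 152 CPM. In T cell-like cells Apoe stood at 3.46 and 54.4 CPM, against 5.69 and 31.1 CPM carried in proportion to C1q.

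Across the 67 library and cluster combinations of at least 20 cells, some members had like patterns. The correlation of log2(CPM + 10) was 0.87 between Cd36 and Fabp4, 0.78 between Abca1 and Apoe, 0.72 between Lipa and Abca1 and 0.71 between Cd36 and Lpl. These points share 2 libraries, so the values describe and do not test. Among 9377 gene rows, the rows most like Trem2 were C3ar1 (0.95), C1qb (0.94) and Ms4a7 (0.94). Those most like Cd36 were Pparg (0.90), Fabp4 and Thrsp (0.78), and those most like Lpl were Xdh (0.83), Pparg (0.79) and Crat (0.72). Fabp4 was nearest to Cd36, Thrsp (0.86) and Pparg (0.86), and Fabp5 to Zbtb18 (0.68), Wdr91 (0.67) and Adam17 (0.66). Gpnmb was nearest to Glmp (0.77), Pld3 (0.75) and Hexa (0.69), and Lipa to Hmox1 (0.80), Grn (0.79) and Pltp (0.78). For Abca1 the nearest were Apoe, Tcn2 (0.77) and Selenop (0.74), for Abcg1 Gngt2, Ucp2 and Lyn (0.82 each), and for Apoe Abca1, Rgl1 (0.69) and Rreb1 (0.69).

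The macrophage-like cells split into states that handled these genes very differently. A state with all 9 of 9 markers of lipid handling (such as Spp1, Lgals3, Cd9, Mmp12 and Ctsk) held nearly all macrophage Gpnmb and Fabp5. A pair of resident-like states was led by Ccl8 and Folr2 or by Lyve1 and Cd163, a monocyte-like state by Plac8 and Chil3, and a further state by Tmem119 and Cx3cr1. The lipid-handling-like state made up 11.2% (8.91 to 13.8) of macrophage-like cells in the inhibitor library, 75 cells, and 25.7% (23.6 to 27.9) in the DMSO library, 422 cells. Under finer sub-clustering, 2 narrower states of that name together held 8.06% and 9.19%.

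**Figure D2:**
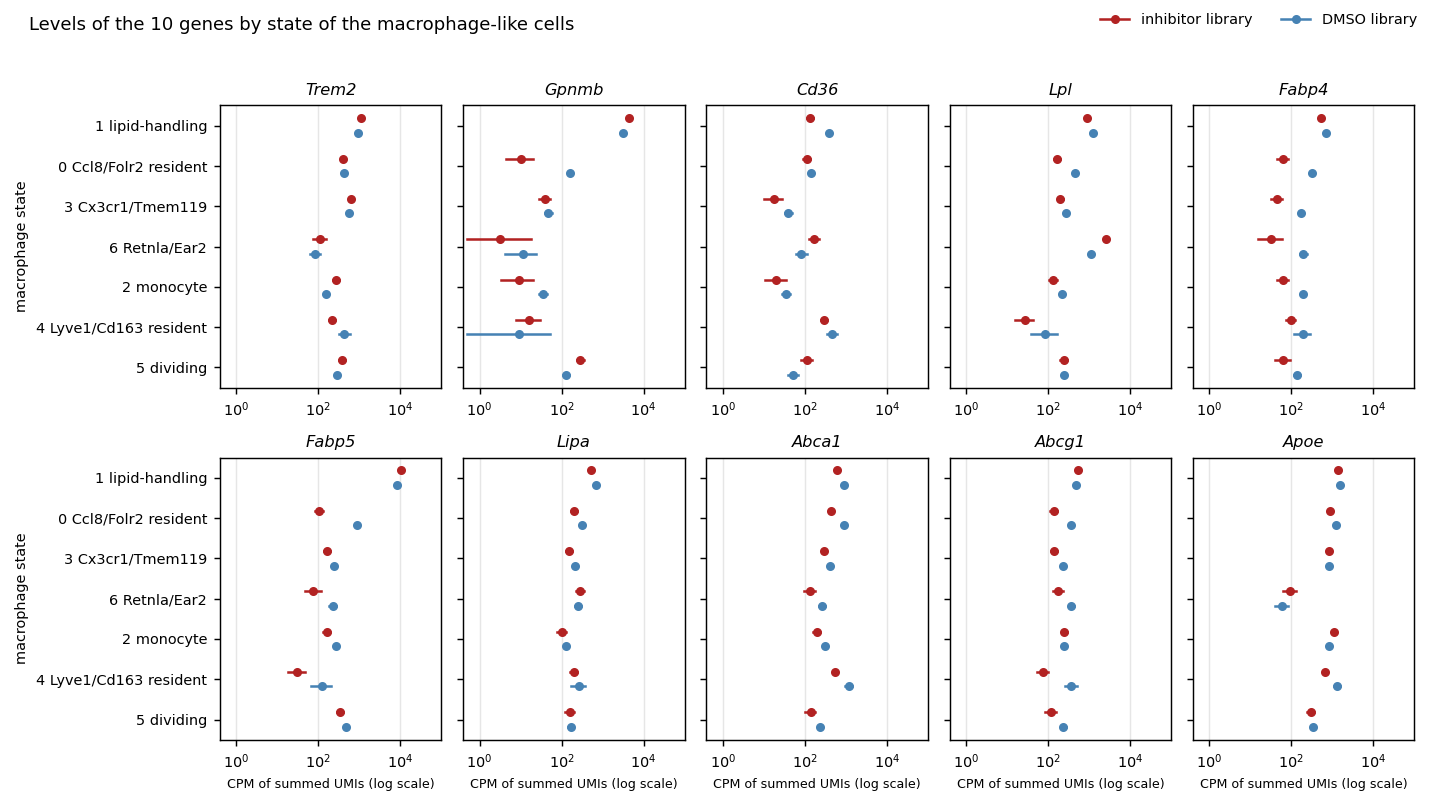
Level of each of the 10 genes by state of the macrophage-like cells, in CPM of summed UMIs on a log axis, in the inhibitor library (red) and the DMSO library (blue), with exact Poisson 95% intervals. The lipid-handling-like state tops Gpnmb at 4351 and 3201 CPM and Fabp5 at 10223 and 8314 CPM, while Lpl is higher in the Retnla- and Ear2-led state at 2611 CPM of the inhibitor library than in the other states shown of that library.

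In the lipid-handling-like state, Gpnmb reached 4351 CPM in the inhibitor library and 3201 CPM in the DMSO library, and the state gave 95.6% and 92.8% of all macrophage Gpnmb UMIs. Fabp5 reached 10223 and 8314 CPM there, and 94.3% and 87.1% of macrophage Fabp5 UMIs. Both genes rank among the leading genes of the state although neither was used to find it. Trem2 was less exclusive, with 1119.6 and 919 CPM in this state, 614 and 565 CPM in the Tmem119-led state, 408 and 426 CPM in the Ccl8-led resident state and 269.6 and 158 CPM in the monocyte-like state. Lipa was highest in the lipid-handling-like state too, at 521 and 675 CPM, against 102 and 130.2 CPM in the monocyte-like state.

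The order of states for Lpl was not the same in both libraries. Lpl stood at 2611 and 1098 CPM in a small unnamed state led by Retnla and Ear2, of 33 and 38 cells, where 93.9% and 89.5% of cells had a UMI, against 906 and 1262 CPM in the lipid-handling-like state. The lipid-handling-like state gave 37.0% of macrophage Lpl UMIs of the inhibitor library and 61.2% of those of the DMSO library, and the Retnla-led state 37.8% and 6.89%. Among states of at least 20 cells in each library, Cd36 was highest in the Lyve1-led resident state, at 295 and 462 CPM, with 135 and 392 CPM in the lipid-handling-like state, which gave 21.4% and 67.9% of macrophage Cd36 UMIs. A state of 4 and 9 cells, led by the capillary gene Gpihbp1, had 1664 and 689 CPM of Cd36. That Lyve1-led state held 163 cells of the inhibitor library and 22 of the DMSO library, so its DMSO values rest on few cells. Abca1 was high both in it, at 555 and 1179 CPM, and in the lipid-handling-like state, at 619 and 909 CPM. Apoe tags were found at 1408 and 1522 CPM in the lipid-handling-like state, at 1105 and 820.2 CPM in the monocyte-like state, and at 92.2 and 58.2 CPM in the Retnla-led state.

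Between the libraries, Abca1 was the member called in the most classes. Its level was lower with the inhibitor in each of the 7 classes where it was measured, and its ratio was under 1 in all 9 classes compared. A ratio under 1 in all 9 classes, measured there or not, was also found for Trem2, Lpl, Abcg1 and Apoe. The share of all gene rows for which this held was not computed. Abcg1 was lower in macrophage-like and adipocyte-like cells, and Apoe in adipocyte-like cells. Trem2, Cd36, Lpl, Fabp4, Fabp5, Gpnmb and Lipa were called in none of the 9 classes.

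**Figure D3:**
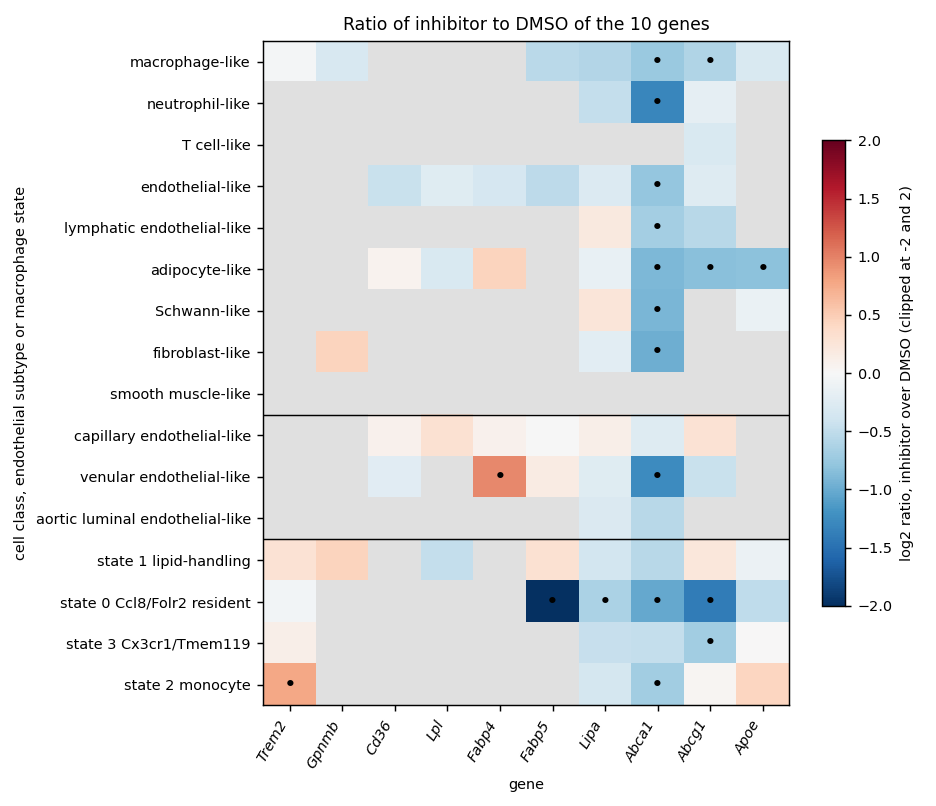
Log2 ratio of inhibitor over DMSO for the 10 genes (columns) in 9 cell classes, 3 endothelial subtypes and 4 macrophage states (rows); grey cells are not measured and a dot marks a ratio past 1.5-fold whose counting interval leaves out 1. The Abca1 column is blue wherever it is measured, and the capillary row carries no dot.

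In macrophage-like cells, 2 of 7 measured members were lower and none was higher, against 3.14% and 2.65% of 6045 measured gene rows. The median log2 ratio of the 7 was -0.54, against 0.02 over all measured rows. Abca1 had 369.6 CPM in the inhibitor library and 617 CPM in the DMSO library, which gives a ratio of 0.599 (0.569 to 0.631). Abcg1 had 224 and 341 CPM, a ratio of 0.656 (0.614 to 0.702), and this call was lost at 0.670 when the level of the class with least of the gene was subtracted. Lipa, at 0.668 (0.626 to 0.713), and Fabp5, at 0.690 (0.675 to 0.706), came just short of the 1.5-fold limit. The count of members called moved with the settings: it was 4 with TMM scaling, with doublets kept, with thinned cells and as the median within clusters, and 1 with the lowest class subtracted. Trem2 had a ratio of 0.974 (0.930 to 1.02).

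In fibroblast-like cells, 1 of 3 measured members was lower, Abca1, with 113 CPM in the inhibitor library and 224 CPM in the DMSO library, which gives a ratio of 0.507 (0.483 to 0.531). The background was 6.45% of gene rows. After thinning, 20.5% of 1758 and 35.7% of 1847 fibroblast-like cells had an Abca1 UMI, against 55.4% and 85.5% of all of them before it. In Schwann-like cells Abca1 was the 1 member of 3 called lower, at 0.533 (0.458 to 0.618), against 4.90% of gene rows. In neutrophil-like cells it was likewise 1 of 3, at 0.403 (0.215 to 0.697) from 14 and 157 UMIs, against 5.92%, and in lymphatic cells 1 of 3, at 0.626 (0.540 to 0.722), against 8.11%. The mean of each lymphatic cell's own CPM gave 0.771 and no call. Free macrophage RNA would account for 1.22 and 6.96 CPM of Abca1 in fibroblast-like cells and 9.02 and 14.6 CPM in Schwann-like cells.

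In endothelial-like cells as a whole, Abca1 was the 1 member of 7 called lower, with 247 CPM in the inhibitor library and 422 CPM in the DMSO library, which gives a ratio of 0.585 (0.540 to 0.634), against 6.56% of gene rows. The median over the endothelial clusters was 0.684, which is not past the limit. Capillary cells formed 190 of 494 endothelial-like cells in the inhibitor library and 410 of 741 in the DMSO library, so subtypes are given separately. In capillary cells, none of 7 measured members was called, against 4.88% of gene rows higher and 5.43% lower. Cd36 had a ratio of 1.06 (1.03 to 1.10), Fabp4 1.06 (1.05 to 1.08), Lpl 1.23 (1.17 to 1.29), Fabp5 0.995 (0.932 to 1.06) and Abca1 0.835 (0.746 to 0.933). In venular cells, Abca1 was lower at 230 CPM in the inhibitor library against 549 CPM in the DMSO library, which gives a ratio of 0.419 (0.335 to 0.520), and Fabp4 was higher at 16354 against 8421 CPM, a ratio of 1.94 (1.88 to 2.0). These were 1 lower and 1 higher of 6 measured members, against 9.40% and 5.75% of gene rows. The Fabp4 ratio was 1.39, and not called, as the mean of each cell's CPM. In aortic luminal cells Abca1 had a ratio of 0.684 (0.589 to 0.792).

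In adipocyte-like cells, 3 of 7 measured members were lower, all of them efflux genes, and none was higher, against 5.75% and 4.53% of gene rows. Abca1 had 193 CPM in the inhibitor library and 358 CPM in the DMSO library (ratio 0.538, 0.477 to 0.605), Abcg1 77.7 and 138 CPM (0.563, 0.464 to 0.678), and Apoe tags 270.4 and 479 CPM (0.565, 0.510 to 0.624). The Abcg1 ratio was 0.358 as the mean of each cell's CPM and 0.367 with thinned cells, and the Apoe ratio 0.362 with thinned cells. The uptake genes of the same cells had ratios of 1.05 for Cd36, 0.814 for Lpl and 1.36 for Fabp4. The class held 84 and 737 cells in a pair of clusters, one led by Car3 and one by Pck1 and Cox8b. Abca1 had 140.4 and 324 CPM in the Car3-led cluster, and 215 and 382 CPM in the Pck1-led cluster. Fabp4 had 24406 and 12039 CPM in the Car3-led cluster, a ratio of 2.03 (1.99 to 2.07) that is past the limit, and 34082 and 30425 CPM in the Pck1-led cluster, a ratio of 1.12. The macrophage markers summed to 99.3 CPM in adipocyte-like cells of the inhibitor library and 384 CPM in those of the DMSO library, and macrophage RNA in proportion to C1q would bring 0.651 and 10.0 CPM of Abca1.

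Counted by cluster, Abca1 had a ratio under 1 in 29 of 29 clusters with at least 20 cells in each library, with a median of 0.546 and a range from 0.195 to 0.964, and the interval lay below 1 in 25 of them. A lower median was not particular to Abca1. Over the clusters where they had at least 20 UMIs, the other members had medians from 0.287 (Cd36) to 0.832 (Lipa). The ratio was under 1 in 25 of 28 clusters for Apoe (median 0.519), 24 of 28 for Lpl (0.546) and 22 of 29 for Fabp4 (0.314). Of 1705 gene rows with at least 20 UMIs in all 29 clusters, 16 (0.938%) had a ratio under 1 in every cluster, and Abca1 was the 1 of 3 members tested (with Fabp4 and Fabp5) among them. The other rows included early-response genes, which cells switch on within a short time of a stimulus, tissue dissociation included: Fos, Fosb, Junb, Egr1, Ier2, Dusp1 and Zfp36. The chaperone genes Hspa8, Hspb1, Hsp90ab1 and Hsp90b1 were among 9 rows with a ratio above 1 in every cluster.

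A list of 15 early-response genes was written after the cluster counts were seen. It holds the 7 just named, whose low ratios had chosen them, so the direction of those is no result. Of the other 8 genes, 8 had a ratio under 1 in macrophage-like, endothelial-like, capillary, adipocyte-like and T cell-like cells, 7 in fibroblast-like, Schwann-like, lymphatic and venular cells, 6 in neutrophil-like and aortic luminal cells and 5 in smooth muscle-like cells. Over all measured gene rows, the share with a ratio under 1 was 47.3% in macrophage-like, 44.6% in adipocyte-like, 48.4% in fibroblast-like and 49.7% in capillary cells. The summed level of all 15 was 6507 CPM in macrophage-like cells of the inhibitor library and 9960.3 CPM in those of the DMSO library, and the median ratio of the 8 genes was 0.718. In adipocyte-like cells the sum was 4652 and 9424 CPM (median of the 8 genes 0.503), and in fibroblast-like cells 4659 and 6031 CPM (0.812). In capillary cells, where Abca1 was not called, it was 6670.5 and 9960 CPM (0.674), and in aortic luminal cells 4848 and 5547 CPM (0.869). Their part in the Abca1 result was not tested.

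In the lipid-handling-like state, none of 8 measured members was called, against 4.21% of gene rows higher and 8.26% lower. Gpnmb had a ratio of 1.36 (1.31 to 1.41), Fabp5 1.23 (1.20 to 1.26), Trem2 1.22 (1.13 to 1.31), Abcg1 1.17 (1.06 to 1.30), Lipa 0.772 (0.698 to 0.852) and Abca1 0.681 (0.621 to 0.745). The class-wide ratios of Gpnmb, 0.802, and Fabp5, 0.690, lay on the other side of 1 from those within the state that holds most of their UMIs. So did the class-wide ratio of Abcg1, 0.656, which was called lower in the class. This state gave 45.5% of macrophage Abcg1 UMIs of the inhibitor library and 41.9% of those of the DMSO library. The state was itself a different mix in each library. Under finer sub-clustering, 44.0% of its inhibitor cells and 18.5% of its DMSO cells fell into a finer state with 9 of 9 lipid-handling markers, and 32.0% and 66.1% into one with 0 of 9. A marker counted only where it was raised over the other macrophage-like cells, so 0 of 9 does not mean that the markers were absent. In that finer state their mean log2 difference from the other macrophage-like cells was -0.00129. The part of this makeup in the ratios was not tested.

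In the Ccl8-led resident state, 4 of 6 measured members were lower and none higher, against 5.92% of gene rows in each direction, and 3 of the 4 met the limits for being measured in both libraries. Fabp5 met them in the DMSO library alone, with 103 CPM in the inhibitor library and 897 CPM in the DMSO library, so its ratio of 0.115 (0.0907 to 0.144) is given as a description. Abcg1 had 138 and 362 CPM (0.380, 0.308 to 0.465), Abca1 434 and 881 CPM (0.492, 0.438 to 0.553) and Lipa 201 and 312 CPM (0.643, 0.537 to 0.765). The Lipa call was lost when cells were thinned (0.670), when each cell's CPM was averaged (0.769) and when the lowest class was subtracted (0.673). The Fabp5 ratio was 0.146 and 0.158 under the first and second of these, where its level no longer met the limit for being measured. Under finer sub-clustering, 63.8% of its inhibitor cells and 7.34% of its DMSO cells fell into one finer state, and 7.38% and 83.5% into another. The median mitochondrial share of its cells was 5.18% and 7.34%. The part of either in the result was not tested.

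In the monocyte-like state, Abca1 was lower, at 194 CPM in the inhibitor library and 315 CPM in the DMSO library (0.616, 0.506 to 0.745), and Trem2 was higher, at 269.6 and 158 CPM (1.71, 1.42 to 2.05). These were 1 lower and 1 higher of 5 measured members, against 6.75% and 5.17% of gene rows. Under finer sub-clustering, 71.9% of its inhibitor cells and 45.6% of its DMSO cells fell into an unnamed finer state, and 19.8% and 39.1% into a finer monocyte-like state, and the part of this makeup in both ratios was not tested. In the Tmem119-led state, Abcg1 was the 1 of 5 called lower, at 142 and 232 CPM (0.615, 0.509 to 0.739), against 7.42%. Its ratio was 0.777 with doublets kept and 0.718 as the mean of each cell's CPM, neither called.

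Around the members stood 6 lists with 66 further genes of the same pathways. In macrophage-like cells, 3 of 39 measured genes were higher and 4 lower, against 2.65% and 3.14% of gene rows, and 32 were not called. The 4 lower genes met the limits for being measured in both libraries, whereas Ch25h and Fdps met them in the inhibitor library alone. Of the efflux and lipoprotein list, Nr1h3, which encodes the sterol sensor LXR alpha, had 21.5 CPM in the inhibitor library and 45.8 CPM in the DMSO library (ratio 0.469). Mylip, an LXR target that encodes a ubiquitin ligase, had 147 and 241 CPM (0.612). Lpcat3, the phospholipid-remodelling LXR target, had 24.0 and 41.6 CPM (0.577), while Ch25h, which makes 25-hydroxycholesterol, was higher at 24.4 and 11.8 CPM (2.07). Of the other lists, Psap, the saposin precursor of lysosomes, was lower at 3277 and 5133 CPM (0.638), and the scavenger receptor gene Stab1 (554 and 356 CPM, 1.56) and the sterol synthesis gene Fdps (20.8 and 10.2 CPM, 2.04) were higher. None of 4 measured TREM2 signalling genes was called, with Tyrobp at 2194 and 2179 CPM.

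**Figure D4:**
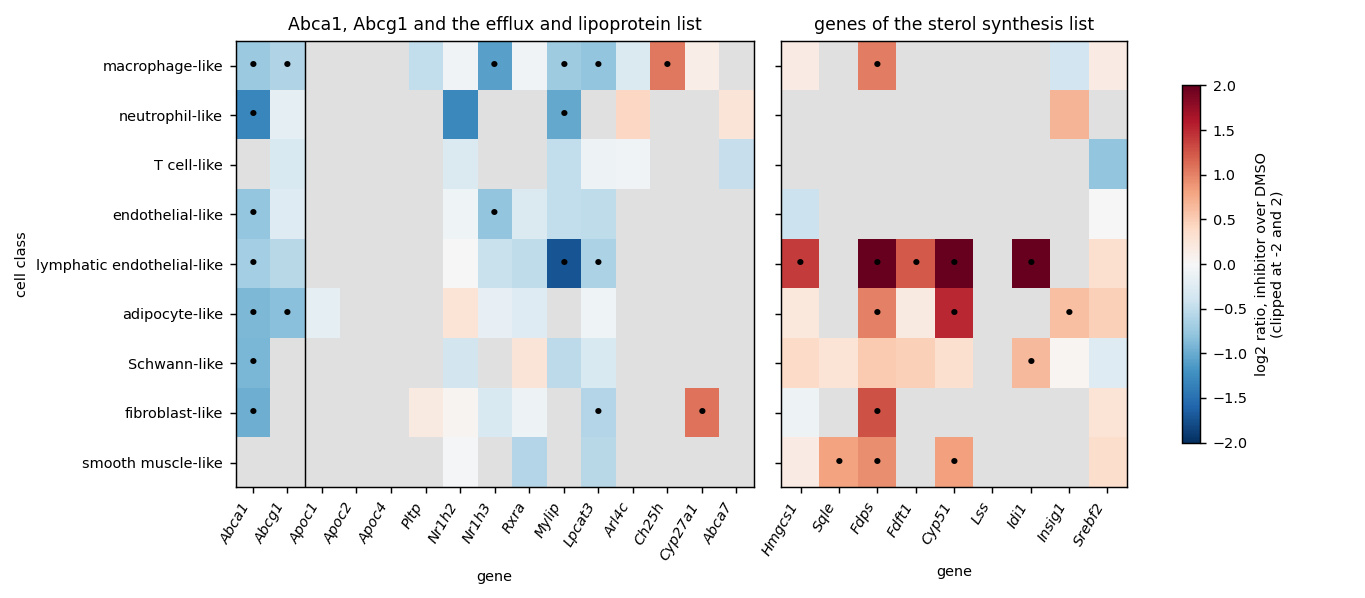
Log2 ratio of inhibitor over DMSO for Abca1, Abcg1 and the efflux and lipoprotein list (left) and 9 genes of the sterol synthesis list (right) over 9 cell classes; grey cells are not measured and a dot marks a ratio past 1.5-fold whose interval leaves out 1. Mylip and Lpcat3 lie below 0 wherever measured, and Fdps lies above 0 wherever measured.

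Some of these genes kept 1 direction over the classes where they were measured. Mylip had a ratio under 1 in 6 of 6 classes where it was measured (3 called lower), Lpcat3 in 8 of 8 (3 called), Nr1h3 in 5 of 5 (2 called) and Abcg1 in 6 of 6 (2 called). The ratio of Angptl4, whose product inhibits lipoprotein lipase, was under 1 in 5 of 5 classes and called lower in all 5, from 0.324 in Schwann-like cells to 0.627 in adipocyte-like cells. Fdps, an enzyme gene of the mevalonate pathway, was called higher in 5 of 6 classes, with ratios from 1.44 to 4.52, and Cyp51 in 3 of 4. Of these calls, that of Fdps in lymphatic cells was the 1 that met the limits for being measured in both libraries. Over all 9 classes compared, measured or not, the ratio was under 1 in 9 for Mylip, Lpcat3 and Abcg1. It was under 1 in 8 for Angptl4, in 7 for Nr1h3, and in 3 each for Fdps and Cyp51. The share of all gene rows that kept 1 direction over their measured classes was not computed.

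In lymphatic cells, 6 of 27 measured list genes were higher, all of them sterol synthesis genes, and 5 lower, against 5.75% and 8.11% of gene rows. Fdps, with 91.8 CPM in the inhibitor library and 20.3 CPM in the DMSO library, met the limits for being measured in both libraries. In 4 of the 6 they were met in the inhibitor library alone, Idi1 (43.6 and 2.80 CPM) and Cyp51 (27.5 and 4.20 CPM) among them. Mylip was among the 5 lower, at 50.5 and 167 CPM, and it met the limits in the DMSO library alone, as did 2 of the 5 in all. In adipocyte-like cells, 5 of 32 were higher and 5 lower, against 4.53% and 5.75% of gene rows, and 2 and 3 of these met the limits in both libraries. Acsl4, which activates long-chain fatty acids and was among the 2, had 125 and 49.7 CPM. Cyp51, at 37.2 and 13.1 CPM, and Cpt1a, which admits fatty acids to mitochondria, at 5.88 and 22.4 CPM, met them in 1 library alone. In fibroblast-like cells 2 of 25 were higher and 5 lower, against 4.91% and 6.45%, and 0 and 4 met the limits in both libraries, with Angptl4 lower at 92.4 and 209.8 CPM. In capillary cells 1 of 22 was called, Cpt1a, lower at 22.9 and 42.3 CPM, a count near the 5.43% of all gene rows. In the Ccl8-led resident state, 9 of 37 were lower and 2 higher, against 5.92% of gene rows in each direction, and 7 and 0 met the limits in both libraries. Pltp, a phospholipid transfer gene, was lower at 1223 and 2233 CPM, and Ch25h, at 37.3 and 9.18 CPM, met them in the inhibitor library alone.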

How the data were processed

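The deposited values are raw UMI counts per gene and barcode, which the file headers say the authors made in Cell Ranger 6.1.1; GRCm38 is the build per the submitters' processing notes, which also name Seurat with no step. Cell types were named here from markers. Barcodes with under 200 genes or over 20% mitochondrial counts were dropped, and doublets were removed with Scrublet as run in scanpy 1.11.5 (Python 3.11.15). Clusters came from 2000 variable genes, members and pathway genes left out, 30 principal components, 15 neighbours and Leiden resolution 1 (leidenalg 0.10.2); states came from resolution 0.5 within macrophage-like cells. A class needed at least 3 of its fixed markers. Counts were summed per class and library. TMM scaling (edgeR 4.0.16, R 4.3.3) was an alternative, as were other filters, thinning and clusterings.

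A class was compared between libraries only if each held 50 or more of its cells. The members are always named; of the 66 list genes, up to 3 per list and direction with the largest ratio, and for each member the 3 most correlated rows. Early-response genes, single clusters and cluster-wide counts were chosen after their values were seen. The members, lists and motifs were chosen with earlier results of these data known. The code for the ratio calls was tested on simulated data, which checks the code and no call made here. Coordinates are from GENCODE and promoters from RefSeq. Depth came to 79648307 UMIs (inhibitor) and 101139161 UMIs (DMSO); intervals give the precision. The values of some list genes are not reported here.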

Additional observations from a re-analysis of the deposited data

Results flagged for a closer look

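The Fabp5 ratio lay on opposite sides of 1 in different groups of cells. It was higher in the inhibitor library in an unnamed cluster led by Cd209a, at 682 CPM, with 454 CPM in the DMSO library and a ratio of 1.5. It was lower in an unnamed cluster of low UMI counts, with a ratio of 0.613, and in the Ccl8-led resident state of the macrophage-like cells, with a ratio of 0.115. In that state Fabp5 met the limits for being measured in the DMSO library alone (897 CPM, against 103 CPM in the inhibitor library), so that value is a description. The difference between these groups of cells was not tested, since each holds 1 library per group.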

How the results depend on the processing

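No paired analysis was possible because each group has 1 library. Leaving out a library was not possible for the same reason. Of 191 recomputed ratios of called members, 180 kept their call, 11 kept their direction and lost it, and 0 turned. Of the 180, 19 came from dropping the filter on low values, which leaves ratio and interval as they were, so those calls could not be lost. The state ratios under other Leiden resolutions reused the same states, so they could move little. The Abca1 ratio in macrophage-like cells ranged from 0.562 to 0.623. TMM scaling multiplied the inhibitor total relative to the DMSO total by 1.22 in neutrophil-like and 0.870 in smooth muscle-like cells, and by 0.959 to 1.06 in the other classes, subtypes and states compared.

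The number of members past the limit moved by more than 1.5 times as follows. With no filter on low values it was 4 in Schwann-like, 3 in T cell-like, 3 in endothelial-like, 7 in fibroblast-like, 7 in lymphatic, 4 in macrophage-like, 6 in neutrophil-like, 10 in smooth muscle-like, 6 in aortic luminal and 5 in venular cells, and 7, 1, 6 and 3 in the Ccl8-led, lipid-handling-like, monocyte-like and Tmem119-led states. With doublets kept it was 1 in T cell-like, 3 in endothelial-like, 2 in lymphatic, 4 in macrophage-like and 1 in aortic luminal cells. With the mean of each cell's CPM it was 3 in endothelial-like, 0 in lymphatic, 2 in aortic luminal and 1 in venular cells, and 2, 1 and 0 in the Ccl8-led, lipid-handling-like and Tmem119-led states. With the lowest class subtracted it was 2 in Schwann-like, 2 in lymphatic and 1 in macrophage-like cells. With thinned cells it was 4 in macrophage-like and 1 in aortic luminal cells and 2 in the lipid-handling-like state. With TMM, and as the median within clusters, it was 4 in macrophage-like cells. Leiden resolution 2 gave 2 in fibroblast-like cells, and a mitochondrial limit of 10% gave 1 in aortic luminal cells.

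State shares depended on the clustering. With doublets kept, the resident-like share was 39.3% in the inhibitor library, the lipid-handling-like share 23.4% in the DMSO library, and the monocyte-like share 4.32% and 11.4%. Sub-clustering at resolution 1 gave 8.06% and 9.19% lipid-handling-like and 2.84% and 7.79% monocyte-like cells. The Tmem119-led state, which 3 of 6 inflammatory markers name, lost that name under both (0% in each library). The cause of these moves was not tested. Low depth limits the neutrophil-like, T cell-like and venular values.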
